A study of Mus musculus with 6 samples.

Results

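The 10 genes described here encode the hypoxia-inducible factors (HIFs), the enzymes that sense oxygen for them, and a set of their target genes. They were taken by symbol from the deposited tables: Hif1a and Epas1, which encode the HIF alpha subunits, Egln1 and Egln3, which encode prolyl hydroxylases, and the targets Vegfa, Adm, Pdk1, Ndrg1, Ankrd37 and P4ha1. All 10 were listed in at least 1 culture, among 17060 genes in all, and 8 of the 10 passed the filter on low counts. Lineage-negative BM cells of WT mice were cultured with EPO, the hormone that drives erythroid maturation, and received the vehicle DMSO (3 cultures) or NUP-17d, a small-molecule inhibitor of Plek2 (3 cultures), for 48 hours. Genotype and medium were thus shared by both groups. Neither the age of the mice, nor whether cells of several animals were pooled, nor the dose is given in the sample labels. Nothing in the labels says that the 3 cultures of a condition came from separate animals, so p-values measure the spread between these cultures only.

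HIFs are pairs of an oxygen-regulated alpha subunit and the stable partner Arnt. In the presence of oxygen and iron, the Egln prolyl hydroxylases mark the alpha subunit, the von Hippel-Lindau protein binds it, and the proteasome destroys it. When oxygen is short the alpha subunit persists, enters the nucleus and activates genes for glycolysis, blood vessel growth and red cell production, among them the EPO gene of the kidney. HIF protein is therefore set mostly after transcription, and transcript values of Hif1a and Epas1 carry no measure of it. Egln1 and Egln3 are themselves targets of HIFs.

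HIFs bind DNA at a core of 5 bases, ACGTG or GCGTG. The 250 bases before the transcription start of a gene were taken from RefSeq (build GRCm38.p6, the same assembly as mm10) for the 8 members matched by gene identifier, with 10 start sites in all because Vegfa and Pdk1 have 2 each. No promoter was matched for Epas1 and Ndrg1. Windows of 4 members are shown because they span the range of the results below: Vegfa, which changed most, Hif1a, which changed little, P4ha1, which did not pass the test, and Adm, which was nearly without reads. Sequences run 5′ to 3′ on the strand of the gene, and capitals mark ACGTG or GCGTG read on either strand.
Vegfa, chr17:46032378-46032627, minus strand: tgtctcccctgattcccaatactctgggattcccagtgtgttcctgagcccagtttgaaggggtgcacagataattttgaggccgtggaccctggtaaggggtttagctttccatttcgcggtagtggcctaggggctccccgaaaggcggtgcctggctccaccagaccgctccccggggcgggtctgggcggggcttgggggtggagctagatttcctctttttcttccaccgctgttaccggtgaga
Hif1a, chr12:73907617-73907866, plus strand: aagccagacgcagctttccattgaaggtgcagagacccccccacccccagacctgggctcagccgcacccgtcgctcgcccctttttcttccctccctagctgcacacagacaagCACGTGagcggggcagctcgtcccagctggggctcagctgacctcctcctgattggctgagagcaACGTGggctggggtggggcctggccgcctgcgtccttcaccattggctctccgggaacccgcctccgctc
P4ha1, chr10:59323046-59323295, plus strand: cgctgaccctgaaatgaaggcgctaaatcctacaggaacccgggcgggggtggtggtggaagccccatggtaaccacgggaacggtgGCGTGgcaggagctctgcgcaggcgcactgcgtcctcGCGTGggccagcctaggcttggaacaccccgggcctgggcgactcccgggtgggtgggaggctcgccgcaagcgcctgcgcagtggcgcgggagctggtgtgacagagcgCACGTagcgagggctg
Adm, chr7:110627407-110627656, plus strand: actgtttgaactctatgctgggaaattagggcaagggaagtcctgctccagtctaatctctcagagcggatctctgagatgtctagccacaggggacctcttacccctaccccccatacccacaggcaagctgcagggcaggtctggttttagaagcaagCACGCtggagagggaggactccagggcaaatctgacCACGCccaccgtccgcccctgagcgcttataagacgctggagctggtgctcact

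None of these 4 windows overlaps an annotated exon in the GENCODE annotation of GRCm38. The Hif1a window lies inside the annotated gene, which begins upstream at 73901375, so the RefSeq start used here differs from that gene start. The Ankrd37 window, not shown, also lies inside its annotated gene. The Hif1a window holds 3 matches, 2 of which are the same palindrome CACGTG read on both strands, a sequence that other transcription factors also bind. P4ha1 also had 3 matches, Adm had 2, and the Vegfa window had 0. The downstream start site of Vegfa, at chr17:46025164-46025413, lies largely over annotated exons of the gene and holds 2 matches. Ankrd37 had the most, with 4, and Egln1 had 2, while Egln3 and the first start site of Pdk1 had 1 each. The window of the second start site of Pdk1 lies over annotated exon sequence and had 0. At least 1 match was present in 8 of the 10 windows, against 38.6% of the 32851 RefSeq promoters searched in the same way. ACGTG itself was in 6 of the 10, against 16.6%. Those promoters were not matched for base composition, and the 10 windows held from 38.4% to 86% G or C. Matches were present in genes almost without reads in these cultures (Ankrd37 and Adm) and absent from the first window of Vegfa. A match is a string of letters and does not show binding, and elements farther from the start were not searched.

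The expected counts, the authors' estimates of reads per gene, summed to between 20076409 and 20419018 per culture. Hemoglobin genes took 19.1% ± 1.04 of them with DMSO and 12.2% ± 0.723 with NUP-17d (mean ± SD of 3 cultures; p = 0.1 in a 2-sided exact permutation test, which cannot go lower for 3 against 3). Because the libraries differed in composition, counts were scaled by the TMM method of edgeR, with factors of 0.887 to 0.930 for DMSO and 1.08 to 1.11 for NUP-17d. Levels are given as TMM-normalized CPM, the count of a gene per unit of scaled library total. A gene is called changed where the quasi-likelihood test of edgeR gave a Benjamini-Hochberg adjusted p under 0.05 over the 12306 tested genes. Every adjusted p below comes from that fit unless another is named. In it 35.3% of all tested genes were called, 16.4% higher and 18.9% lower with NUP-17d. Scaling by library totals alone moved the median log2 fold change of all tested genes from 0.014 to 0.28. Values under that scaling are given beside the lists and beside most named genes whose call or direction it changed.

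Of the 8 tested members, 3 were called higher with NUP-17d (Vegfa, Ndrg1 and Hif1a), 0 were called lower and 5 were not called. The 3 calls are 37.5% of the tested members, against 35.3% of all tested genes called in either direction and 16.4% called higher. The median log2 fold change of the 8 was 0.12, against 0.014 over all tested genes. Values of DMSO and of NUP-17d cultures were fully separated in 4 of the 8 (Vegfa, Ndrg1, Hif1a and P4ha1), a share close to the 46.0% among all tested genes. When libraries were scaled by totals only, 7 of the 8 were called higher, in a setting that called 74.1% of all tested genes, 68.7% higher and 5.34% lower. DESeq2 called 2 of the 8, Vegfa and Ndrg1, both higher, where it called 25.6% of all genes, 10.4% higher and 15.3% lower.

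**Figure D1:**
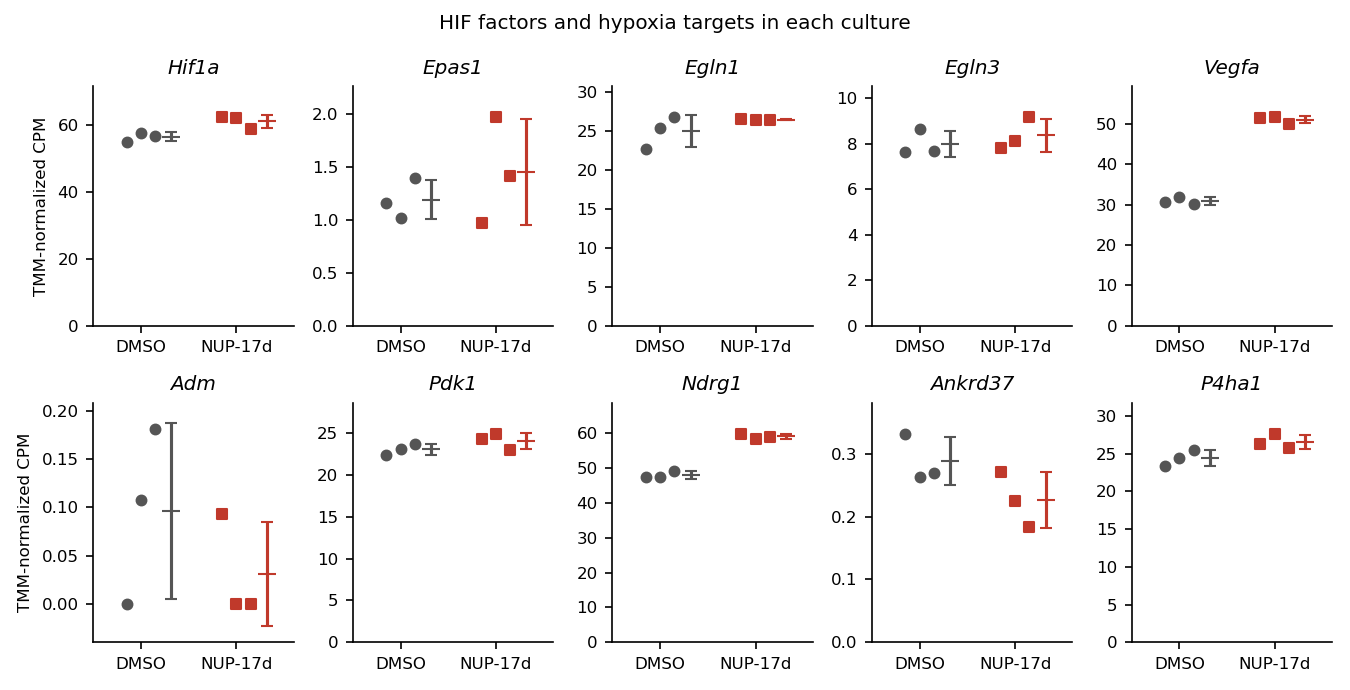
TMM-normalized CPM of the 10 genes in each culture, with DMSO as gray circles and NUP-17d as red squares, and the mean ± SD (n = 3) to the right of each group. Vegfa and Ndrg1 are the 2 genes with a wide gap between the groups, Hif1a and P4ha1 have a narrow gap, and Adm and Ankrd37 lie below 0.4 CPM. Each panel has its own axis.

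Of the secreted ligands, Vegfa rose and Adm was near the detection limit. Vegfa (Entrez gene 22339, chromosome 17, 46016993 to 46032369, minus strand in the GENCODE annotation) encodes vascular endothelial growth factor A, the main growth signal for blood vessels. Its CPM was 30.5, 31.98 and 30.2 in DMSO cultures 1, 2 and 3 and 51.5, 51.6 and 49.96 in NUP-17d cultures 1, 2 and 3. All NUP-17d cultures lay well above all DMSO cultures, and the spread within each group was small. The log2 fold change was 0.72 (standard error, SE, 0.047; adjusted p = 1.73e-12), a 1.65-fold rise, and 98.7% of all tested genes had a lower log2 fold change. Vegfa stayed called in all 14 alternative fits, with log2 fold changes from 0.70 to 1.0.

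Adm encodes adrenomedullin, a peptide that widens blood vessels. Its expected counts were 0, 2.05 and 3.38 in the DMSO cultures and 2.05, 0 and 0 in the NUP-17d cultures. A count of 3, the limit that a count of 0 allows, corresponds to 0.134 to 0.166 CPM in these libraries, so Adm was at or near the detection limit in every culture and no fold is given. The antisense gene Gm28863 overlaps it. A difference in Adm was not detectable at this depth.

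Receptors and relatives of these ligands came from a list of 16 genes, of which 12 were tested. The list also holds relatives and partners of Ndrg1 and P4ha1. Vegfb, a relative of Vegfa, rose from 16.8 ± 0.528 to 20.1 ± 1.52 CPM (SD, n = 3; log2 fold change 0.26, adjusted p = 0.0033). Of the receptors of the family, Nrp2, a co-receptor, rose from 20.5 ± 1.25 to 25.3 ± 2.12 CPM (0.30, adjusted p = 0.00083). The signaling receptor Kdr was low, at 5.60 ± 0.658 and 6.04 ± 0.656 CPM, and was not called (adjusted p = 0.53).

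Calcrl, which binds adrenomedullin together with Ramp2 or Ramp3, fell by 0.54 on the log2 scale, and by 0.27 with library totals only. Its CPM was 304 ± 11.2 and 209 ± 5.33 (adjusted p = 3.10e-12). This was the lowest adjusted p in the list. Ramp1, another partner of Calcrl, had 21.8 ± 0.870 and 24.5 ± 0.636 CPM (log2 fold change 0.17, adjusted p = 0.026). That call was lost in DESeq2 (adjusted p = 0.14) and without DMSO culture 3 or NUP-17d culture 2 (adjusted p of 0.12 and 0.095). Ramp2 was near 0 in both groups. Ramp3 was low, at 0.482 ± 0.205 CPM with DMSO and 0.694 ± 0.110 with NUP-17d, and was not called (adjusted p = 0.28). In the whole list, with the relatives of Ndrg1 and P4ha1, 3 genes were called higher and 2 lower (Calcrl and Ndrg3). Of all tested genes 16.4% were called higher and 18.9% lower. The median log2 fold change of the list was 0.11. Scaled by totals only, 8 were called higher and 1 lower (median 0.38), against 68.7% and 5.34% of all tested genes. Without DMSO culture 1 or NUP-17d culture 2, 1 was called lower, and without DMSO culture 3, 2 were called higher.

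Of the remaining targets, Ndrg1 rose. Ndrg1 (Entrez gene 17988, chromosome 15, 66929318 to 66969640, minus strand) encodes a cytoplasmic protein induced by hypoxia, by iron removal and during differentiation. Its CPM was 47.3, 47.2 and 49.1 in DMSO cultures 1, 2 and 3 and 59.7, 58.3 and 58.8 in NUP-17d cultures 1, 2 and 3. The groups did not overlap.

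The log2 fold change of Ndrg1 was 0.30 (SE 0.042, adjusted p = 2.47e-06), a 1.23-fold rise, and 89.7% of all tested genes had a lower one. It was called in all 14 alternative fits (0.29 to 0.57). The noncoding genes Gm17035 and Gm2895, on the opposite strand, overlap Ndrg1 in the annotation, and since no source states that strand was used in counting, their reads cannot be told apart from those of Ndrg1. The relative Ndrg3 had 74.0 ± 2.45 and 67.9 ± 3.04 CPM (log2 fold change -0.12, adjusted p = 0.026), a call lost in DESeq2 (adjusted p = 0.072) and without DMSO culture 1 or NUP-17d culture 2 (adjusted p of 0.13 and 0.16). With library totals only its log2 fold change was 0.14.

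P4ha1 encodes a catalytic subunit of the collagen prolyl 4-hydroxylase, an enzyme of collagen folding and not an oxygen sensor for HIFs. Its CPM was 23.3, 24.5 and 25.5 with DMSO and 26.2, 27.6 and 25.8 with NUP-17d. The groups did not overlap but nearly touched, and the difference was not called (log2 fold change 0.12, SE 0.057, adjusted p = 0.11). With library totals only P4ha1 was called higher (0.39, adjusted p = 9.25e-06 in edgeR), as most genes were. P4hb, the other subunit of the enzyme, had 338 ± 6.91 and 349 ± 7.79 CPM and was not called (log2 fold change 0.046, adjusted p = 0.31), but was called with library totals only (0.31). Per transcript length it was far above P4ha1 in the DMSO cultures, with 119.97 ± 4.65 against 5.40 ± 0.350 FPKM.

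Pdk1 encodes pyruvate dehydrogenase kinase 1, which keeps pyruvate out of the mitochondrial citric acid cycle. Its CPM was 22.4, 23.1 and 23.7 with DMSO and 24.2, 24.9 and 23.0 with NUP-17d. NUP-17d culture 3 lay among the DMSO cultures, and Pdk1 was not called (log2 fold change 0.061, SE 0.058, adjusted p = 0.45). It was called with library totals only (0.33).

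Pdk2 and Pdk3, other kinases of that step, were called in opposite directions. Pdk2 rose from 13.9 ± 0.958 to 18.7 ± 0.717 CPM (log2 fold change 0.43, adjusted p = 2.27e-05). Pdk3 fell from 49.5 ± 1.86 to 41.4 ± 0.366 CPM (-0.26, adjusted p = 5.14e-05), but with library totals only its log2 fold change was 0.0082. Per transcript length, Pdk3 was the most abundant of the 3 tested kinases in the DMSO cultures, with 22.4 ± 1.40 FPKM against 5.50 ± 0.361 for Pdk2 and 3.97 ± 0.199 for Pdk1. Dld, the shared dehydrogenase subunit, was called lower by a small margin (-0.10, adjusted p = 0.048), lost that call in DESeq2 (adjusted p = 0.13), with no filter on low counts (adjusted p = 0.082) and in every fit without a culture except that without DMSO culture 1, and turned to 0.16 with library totals only. Of the 8 tested genes of the pyruvate dehydrogenase step, 1 was called higher and 2 lower, against 16.4% and 18.9% of all tested genes, with a median log2 fold change of -0.030. The direction turned with library totals only, with 7 called higher and 0 lower (median 0.24), against 68.7% and 5.34% of all tested genes. Pdp1, a phosphatase that opposes these kinases, was among those gained (0.19, adjusted p = 0.15 with TMM, and 0.46, adjusted p = 0.00048 with totals only).

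Ankrd37 encodes an ankyrin repeat protein and is a frequent marker of the hypoxia response in other cells. Its expected counts were 6, 5 and 5 with DMSO and 6, 5 and 4 with NUP-17d. With 16 reads against 15, the ratio of NUP-17d to DMSO after scaling was 0.788, with an exact 95% interval of 0.363 to 1.70. The interval covers counting error only, and the counts are compatible with any ratio in it, 1 included. Ankrd37 overlaps the genes Ufsp2 and Lrp2bp on the opposite strand.

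Hif1a (Entrez gene 15251, chromosome 12, 73901375 to 73947530, plus strand) was by far the more abundant of the HIF alpha transcripts. Per transcript length it stood at 10.8 ± 0.530 FPKM in the DMSO cultures, against 0.197 ± 0.0306 for Epas1 and 0.853 ± 0.0981 for Hif3a, the gene of a further alpha subunit. Its CPM was 55.0, 57.7 and 56.8 in DMSO cultures 1, 2 and 3 and 62.3, 62.2 and 58.9 in NUP-17d cultures 1, 2 and 3. NUP-17d culture 3 lay close to DMSO culture 2, and the groups were separated by a small gap.

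The log2 fold change of Hif1a was 0.11 (SE 0.042, adjusted p = 0.040), a 1.08-fold rise. DESeq2 did not make this call (adjusted p = 0.15), and of the 6 fits that each left out a culture only the fit without NUP-17d culture 3 made it (adjusted p from 0.024 to 0.15). An antisense gene, Gm15283, and a coding gene, Gm49321, overlap Hif1a in the annotation.

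Epas1 (Entrez gene 13819, chromosome 17, 86753700 to 86833410, plus strand) encodes HIF-2 alpha, the subunit that drives the EPO gene and is high in endothelial cells. Its CPM was 1.17, 1.02 and 1.39 with DMSO and 0.973, 1.97 and 1.42 with NUP-17d, from 19.4 to 44.0 expected counts per culture. The groups overlapped, with both the lowest and the highest value in the NUP-17d cultures. Epas1 was not called (log2 fold change 0.30, SE 0.26, adjusted p = 0.39), and its log2 fold change, close in size to that of Ndrg1, had a far larger error. Without NUP-17d culture 2 it was 0.026.

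Among the oxygen sensors, neither Egln1 nor Egln3 was called. Egln1, the main prolyl hydroxylase for HIF alpha subunits in most cells, had 22.7, 25.4 and 26.8 CPM with DMSO and 26.5, 26.4 and 26.4 with NUP-17d. DMSO culture 1 was low, the other DMSO cultures lay at or near the NUP-17d values, and the log2 fold change was 0.082 (SE 0.060, adjusted p = 0.30). Without DMSO culture 1 it was 0.020, and with library totals only it was 0.35 and called.

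Egln3, a prolyl hydroxylase strongly induced by hypoxia in many cells, had 7.63, 8.65 and 7.68 CPM with DMSO and 7.82, 8.12 and 9.17 with NUP-17d. The groups overlapped (log2 fold change 0.066, SE 0.10, adjusted p = 0.65), and without NUP-17d culture 3 the log2 fold change was -0.0054. With library totals only it was 0.33 and called. Egln2, the third enzyme of the family and part of the list of HIF machinery, rose from 32.9 ± 1.42 to 40.1 ± 0.447 CPM (0.29, SE 0.049, adjusted p = 4.01e-05). Per transcript length Egln2 was also the most abundant of the 3, with 14.5 ± 0.429 FPKM in the DMSO cultures against 6.36 ± 0.656 for Egln1 and 2.67 ± 0.246 for Egln3.

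**Figure D2:**
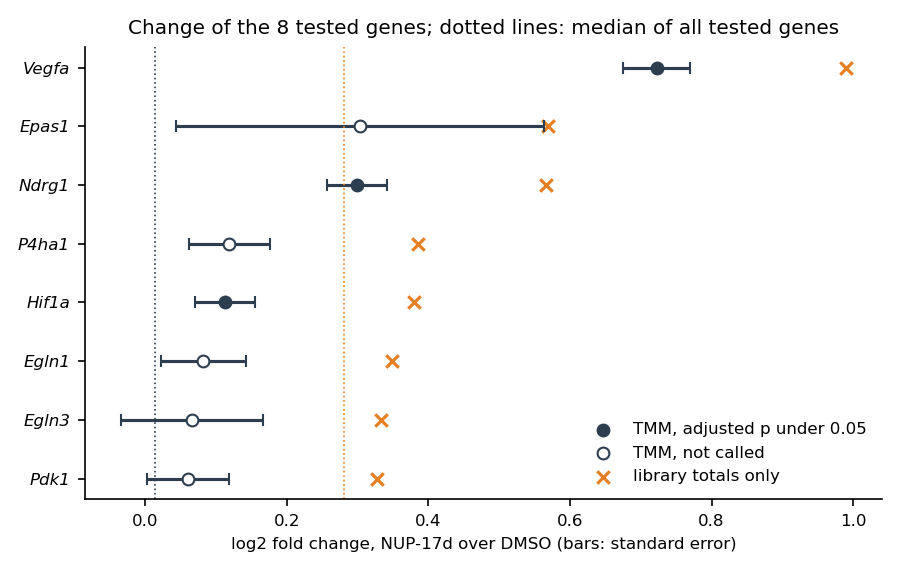
Log2 fold change of the 8 tested genes, NUP-17d over DMSO, with standard errors from the TMM-scaled edgeR fit (filled circles called, open circles not called). Orange crosses give the same genes with library totals only, and dotted lines give the median of all tested genes under each scaling, 0.014 and 0.28. Vegfa, at 0.72, stands far to the right of the other 7, and Epas1 has the widest error.

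In levels per transcript length, the unit in which genes can be compared, the order in the DMSO cultures was Ndrg1 (14.8 ± 0.552 FPKM), Hif1a (10.8 ± 0.530), Vegfa (8.50 ± 0.447), Egln1 (6.36 ± 0.656), P4ha1 (5.40 ± 0.350), Pdk1 (3.97 ± 0.199), Egln3 (2.67 ± 0.246), Ankrd37 (0.287 ± 0.0289), Epas1 (0.197 ± 0.0306) and Adm (0.0633 ± 0.0603). Neighbors in this order did not overlap between cultures except Egln1 and P4ha1. With NUP-17d, Vegfa (17.1 ± 0.356 FPKM) moved ahead of Hif1a (14.2 ± 0.662) to the second place behind Ndrg1 (21.99 ± 0.386), and Epas1 (0.293 ± 0.101) stood above Ankrd37 (0.273 ± 0.0551) with overlapping cultures. FPKM values carry no correction for library composition, so they serve for the order within a group and not for the change between groups. Adm, Epas1 and Ankrd37 were below 1 FPKM in every culture.

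**Figure D3:**
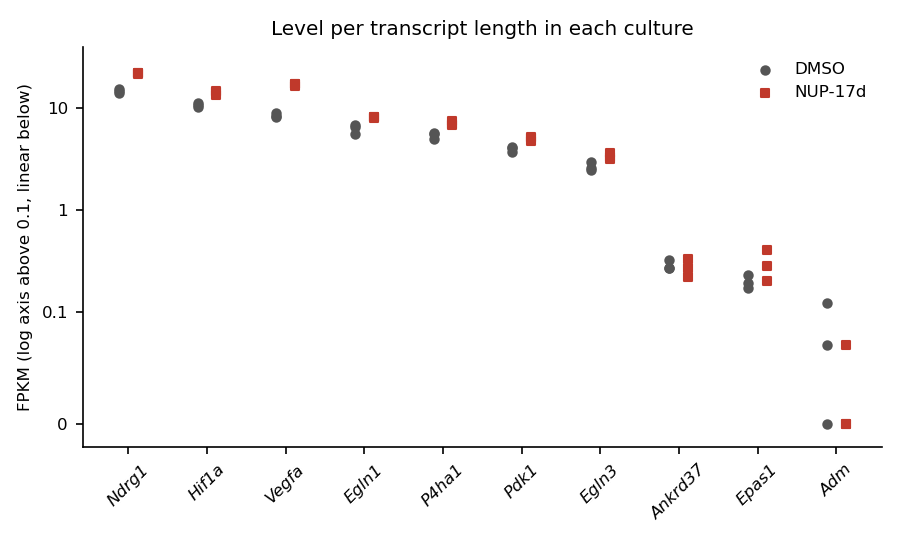
FPKM of the 10 genes in each culture (DMSO gray circles, NUP-17d red squares), ordered by the DMSO mean, on an axis that is logarithmic above 0.1 and linear below. The 7 most abundant genes lie between 2.48 and 22.4 FPKM, and Ankrd37, Epas1 and Adm lie at 0.40 or below.

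With TMM scaling the rest of the HIF machinery was called lower more often than higher, and with library totals only the order was the reverse. Of its 16 listed genes 15 were tested, 3 were called higher and 7 lower, against 16.4% and 18.9% of all tested genes. DESeq2 called 2 higher and 5 lower, where it called 10.4% and 15.3% of all tested genes. Leaving out each culture in turn gave 3 higher and 5 to 7 lower. The median log2 fold change of the list was -0.12, against 0.014 over all tested genes. Ep300, a coactivator that HIFs recruit, fell from 377 ± 19.0 to 311 ± 15.6 CPM (-0.28, adjusted p = 3.99e-06), and the related Crebbp from 99.5 ± 2.79 to 82.5 ± 4.04 CPM (-0.27, adjusted p = 8.02e-06). Siah1a, a ubiquitin ligase that acts on Egln proteins, fell from 104 ± 3.98 to 77.0 ± 2.18 CPM (-0.44, adjusted p = 1.28e-09).

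Elob, which joins the von Hippel-Lindau protein to its ligase complex, was called lower as well (-0.18, adjusted p = 0.00045). Arnt, the partner of all HIF alpha subunits, had 76.9 ± 2.32 and 70.8 ± 0.840 CPM (-0.12, adjusted p = 0.020), a call that DESeq2 did not make (adjusted p = 0.061) and that was lost without DMSO culture 1, DMSO culture 2 or NUP-17d culture 2 (adjusted p of 0.091, 0.062 and 0.070). With library totals only, the log2 fold changes of Ep300 (-0.0082) and Crebbp (-0.0029) were near 0, those of Elob (0.084) and Arnt (0.15) turned positive, and Siah1a stayed called lower (-0.17). With totals only, 8 genes of the list were called higher and 1 lower, against 68.7% and 5.34% of all tested genes. Vhl itself had 19.0 ± 1.69 and 18.8 ± 0.982 CPM and was not called (adjusted p = 0.89).

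Glycolytic targets of HIFs, 20 genes that were all tested, had 7 called higher and 2 lower, against 16.4% and 18.9% of all tested genes. Their median log2 fold change was 0.086. The higher count was 5 in DESeq2, which called 10.4% of all tested genes higher, and 5 without NUP-17d culture 1 or 2. It was 6 without DMSO culture 1 and 9 with a block for the replicate number. The lower count was 1 in DESeq2 and without DMSO culture 2 or 3. Pkm, pyruvate kinase, rose from 507 ± 13.7 to 600.1 ± 5.75 CPM (0.24, adjusted p = 2.37e-06), and Aldoa, an aldolase, from 422 ± 5.61 to 476 ± 5.94 CPM (0.17, adjusted p = 0.00016). Aldoc, a second aldolase, rose most in proportion among the genes of lowest p, from 4.50 ± 0.533 to 7.66 ± 1.34 CPM (0.76, adjusted p = 5.06e-05). Hk1, a hexokinase of red cells, fell from 388 ± 7.89 to 335 ± 7.55 CPM (-0.21, adjusted p = 1.77e-05), and turned to 0.056 with library totals only.

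Gapdh, the most abundant of the list per transcript length, had 1375 ± 16.8 and 1381 ± 28.7 CPM and was not called (0.0059, adjusted p = 0.91), but was called higher with library totals only (0.27). The 11 genes that were not called included the glucose transporter Slc2a1 (0.043), Pgk1 (-0.061) and Ldha (-0.063), all common readouts of HIF activity, named here after their values were seen. In FPKM, which carry no correction for composition, their means were higher with NUP-17d. Slc2a1 had 85.6 with DMSO and 106 with NUP-17d, Pgk1 73.6 and 85.2, and Ldha 148 and 171. The direction of Pgk1 and Ldha thus depended on the scaling. Scaled by totals only, 18 genes of the list were called higher and 0 lower, against 68.7% and 5.34% of all tested genes.

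Further hypoxia targets, 31 genes of which 29 were tested, had 6 called higher, 4 lower and 19 not called, against 16.4% higher and 18.9% lower of all tested genes, with a median log2 fold change of 0.064. Scaled by totals only, 17 were called higher and 3 lower (median 0.33), against 68.7% and 5.34% of all tested genes. The 4 genes with the lowest p moved in both directions. Bnip3l, also called Nix, which tags mitochondria for removal in maturing red cells, fell from 586 ± 22.3 to 376 ± 12.4 CPM (-0.64, adjusted p = 1.51e-13). Mxi1, a MAX-binding repressor, fell from 277 ± 3.01 to 215 ± 8.64 CPM (-0.37, adjusted p = 4.85e-09), and Kdm3a, a histone demethylase, from 126 ± 3.11 to 97.2 ± 2.51 CPM (-0.37, adjusted p = 8.64e-09). Bhlhe40, a transcriptional repressor, rose from 19.0 ± 1.04 to 29.6 ± 1.99 CPM (0.63, adjusted p = 6.58e-09). The 3 falls were smaller with library totals only, at -0.37 for Bnip3l, -0.099 for Mxi1 and -0.10 for Kdm3a, and Kdm3a lost its call in limma on log2 FPKM with 1 or 0.1 added (adjusted p of 0.055 and 0.056).

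Bnip3, Bhlhe41 and Ddit4, named after their values were seen, are on the same list. Bnip3, a relative of Bnip3l, rose from 14.9 ± 0.394 to 24.1 ± 2.28 CPM (0.69, adjusted p = 1.37e-08), so the pair moved in opposite directions. Bhlhe41, the paralog of Bhlhe40, rose from 10.5 ± 1.66 to 17.4 ± 1.27 CPM (0.73, adjusted p = 2.28e-07). Ddit4, an inhibitor of mTORC1, fell from 35.8 ± 0.941 to 28.7 ± 0.571 CPM (-0.32, adjusted p = 1.32e-05), a call that was lost with library totals only (-0.050).

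**Figure D4:**
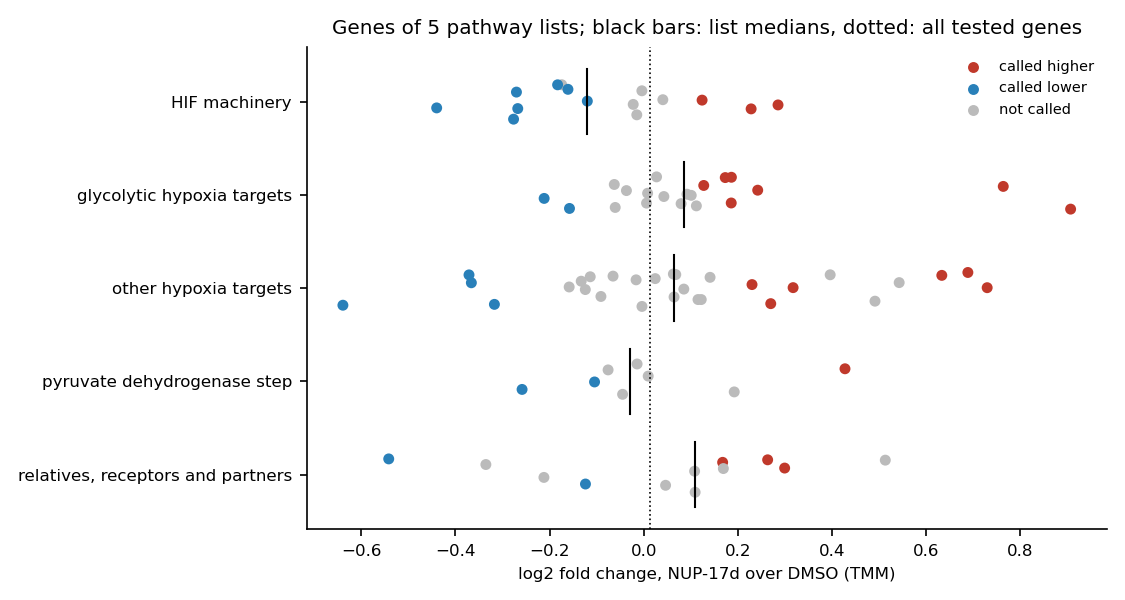
Log2 fold change (NUP-17d over DMSO, TMM-scaled) of every tested gene in the 5 lists of related genes, in red where called higher, blue where called lower and gray where not called. Black bars are list medians, from -0.12 for the HIF machinery to 0.11 for relatives, receptors and partners, and the dotted line is the median of all tested genes. Genes called higher and genes called lower are present in each list.

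Over the 5 lists together, 20 of 84 tested genes (23.8%) were called higher and 17 (20.2%) lower, against 16.4% and 18.9% of all tested genes. Their median log2 fold change was 0.034.

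The cultures hold several cell types, and markers of these moved with the treatment. All 10 erythroid markers were called lower with NUP-17d, and their summed level was 23594 to 25331 CPM with DMSO and 14587 to 15427 with NUP-17d, a ratio of 0.622. Alas2, which makes the first intermediate of heme, and Slc4a1, the anion exchanger of the red cell membrane, were the highest of them per transcript length. Bnip3l and Hk1, which are high in red cell precursors, moved in the same direction as these markers. In bulk RNA, fewer cells of a type and less RNA per cell cannot be told apart.

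Macrophage and monocyte markers, led by Lyz2 and Cd68, summed to 3059 to 3299 CPM with DMSO and 3429 to 3732 with NUP-17d (ratio 1.12), with 4 of 9 called higher and 3 lower. Megakaryocyte markers, led by Pf4 and Itga2b, had a ratio of 1.11, with 4 of 6 called higher. Neutrophil markers, led by S100a9 and Mpo, had a ratio of 1.03, with 2 of 8 called higher. Mast cell and basophil markers, led by Prss34 and Mcpt8, had a ratio of 0.923, with 1 of 7 called higher and 3 lower.

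Endothelial markers, led by Pecam1 and Tie1, were low, with a sum of 61.5 to 63.6 CPM with DMSO and 72.5 to 75.7 with NUP-17d (ratio 1.18). Of the 6 markers 4 were tested, and 2 of these, Tek and Tie1, were called higher. The defining endothelial genes Cdh5 (0.127 and 0.181 CPM) and Emcn (0.125 and 0.0602 CPM) were at the detection limit. Stromal markers, led by Pdgfrb and Col1a2, summed to 9.69 to 12.2 CPM over the 6 cultures, and Col3a1 was listed in no culture. For the erythroid, macrophage, mast cell, megakaryocyte, endothelial and stromal sums no DMSO culture lay within the range of the NUP-17d cultures (p = 0.1 in the exact permutation test, its lower limit here), and for the neutrophil sum the ranges overlapped (exact p = 0.2). Vegfa rose 1.65-fold and Ndrg1 1.23-fold, and the highest ratio among these sums was 1.18. A sum follows its most abundant genes, as Lyz2 in the macrophage sum, and does not bound the change of a cell type. The single markers Cd68 (1.23-fold), Mrc1 (1.25), Tie1 (1.30) and Gp1bb (1.38) rose about as much as Ndrg1 or more. Tek rose more than Vegfa, from 7.51 ± 0.573 to 14.9 ± 0.284 CPM. So did Mmp12, a macrophage protease, from 7.30 ± 0.303 to 16.3 ± 1.96 CPM. On the macrophage and endothelial lists Adgre1, Cd14 and C1qa were called lower, and Csf1r, Itgam, Kdr and Pecam1 were not called. The part of cell type in the results on HIF factors and their targets was not tested.

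**Figure D5:**
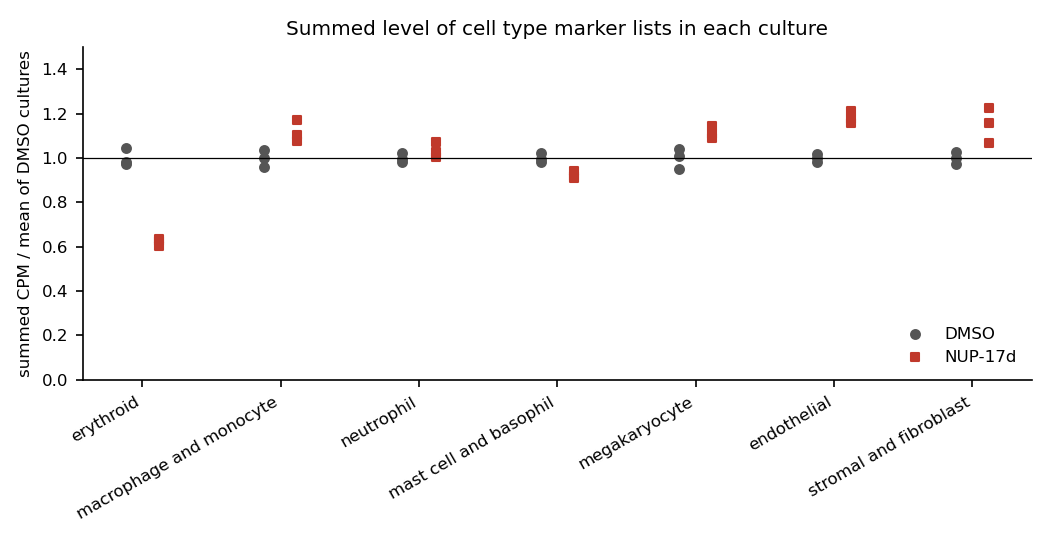
Summed CPM of each marker list in each culture, divided by the mean of the DMSO cultures (DMSO gray circles, NUP-17d red squares). The erythroid sum lies near 0.622 with NUP-17d, the mast cell and basophil sum slightly below 1, and the macrophage, megakaryocyte, endothelial and stromal sums above 1.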

How the data were processed

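RNA of 6 mouse cultures (3 DMSO, 3 NUP-17d, 48 hours) was analyzed from the authors' tables, 1 per culture. The deposited expected count column holds the authors' estimated counts of reads per gene, not normalized, with 27.8% to 28.5% of values not whole (farther than 0.001 from a whole number). The deposited FPKM column holds counts divided by transcript length and library total. The deposited length column is the transcript length that the authors assigned to a gene. Per the labels the genome build was mm10. The aligner and the counting program are not given in the sources used here. The labels describe poly(A) selection and a DNBseq instrument, and the study's methods name a stranded kit and an Illumina instrument.

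Genes that a table leaves out were set to 0. Counts were rounded, filtered with filterByExpr, scaled by TMM and tested with edgeR 4.0.16 (glmQLFit and glmQLFTest, R 4.3.3) at an adjusted p of 0.05. CPM values were computed from unrounded counts. The alternatives were DESeq2 1.42.0, RLE factors, library totals only, no filter, removal of 12 hemoglobin genes, limma 3.58.1 on log2 FPKM with 1 or 0.1 added, a block for the replicate number, and fits without each culture in turn. Members and lists were chosen with earlier results of these data known. Named genes are all members, the 4 tested genes of lowest p and the 2 of highest mean FPKM in each list, and the 2 marker genes of highest mean FPKM in each marker list. Genes named outside this rule, namely Kdr, Ramp1, Ramp2, Ramp3, Arnt, Hif3a, Hif1an, Vhl, Slc2a1, Pgk1, Ldha, Bnip3, Bhlhe41, Ddit4, Tek, Mmp12, Mrc1, Gp1bb, Adgre1, Cd14, C1qa, Csf1r, Itgam, Cdh5, Emcn and Col3a1, were chosen after their values were seen. Pdhb was named by the rule and had an adjusted p of 0.83. The fits were tested on simulated counts. In count data the depth limits genes with few reads. Cultures of a condition differed by more than counting noise (chi-square per degree of freedom 1.84 to 4.60).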

Additional observations from a re-analysis of the deposited data

How the results depend on the processing

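Vegfa and Ndrg1 kept their calls in all 14 alternatives, and 0 members were called lower in any. Settings without a correction for composition moved the counts most. With library totals only, limma on log2(FPKM + 1) and limma on log2(FPKM + 0.1), genes called numbered 9115, 9059 and 9038 (4346 with TMM), of which 8458, 8423 and 8403 were higher (2019) and 657, 636 and 635 lower (2327). Members called, all higher, numbered 7, 7 and 7 (3). Genes called in the 5 lists numbered 63, 63 and 63 (37), with 58, 59 and 59 higher (20) and 5, 4 and 4 lower (17). DESeq2 called 1276 genes higher.

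Under the same 3 settings log2 fold changes turned positive for Elob (0.084, 0.088, 0.088), Hk1 (0.056, 0.057, 0.057), Pdk3 (0.0082, 0.013, 0.014), Pdhb (0.25, 0.25, 0.26), Dld (0.16, 0.16, 0.17), Ndrg3 (0.14, 0.14, 0.15), Arnt (0.15, 0.14, 0.15), Hif3a (0.093, 0.044, 0.087) and Vhl (0.25, 0.23, 0.26). This covers only the named genes that were followed across the settings, and Pgk1 and Ldha were not among them.

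Leaving out each culture in turn gave 3713 to 4008 genes called, 2 to 3 members and 32 to 37 list genes. These fits changed the sign of uncalled log2 fold changes in Egln3 (-0.0054 to 0.13), Gapdh (-0.013 to 0.017), Pdhb (-0.037 to 0.018), Vhl (-0.076 to 0.051) and the HIF hydroxylase gene Hif1an (-0.026 to 0.077).

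The labels do not say whether replicate numbers pair the cultures. Same-number deviations from the group means correlated at 0.098, 0.0138 and 0.0138, against -0.11 to 0.094 for other pairs. Not every culture correlated best with its own number, and these values do not settle the pairing. With the replicate number as a block, 4543 genes were called and the 3 member calls did not change. The cause of these shifts was not tested. Depth limited Adm, Ankrd37 and Epas1.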
